A study of Danio rerio with 3 samples.

Results

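Hox cluster genes were taken as the genes whose platform symbol is hox, a cluster letter a to d, a paralogue number and a letter for the duplicated copy. The rule found 43 genes, measured by 47 probe sets, among 19260 named genes on the array. They lie in all 7 zebrafish clusters, written here as aa, ab, ba, bb, ca, cb and da, and cover each paralogue number up to 13. The study measured brain RNA of adult zebrafish on 3 arrays, from animals that were 6 months old and lived at 28 °C. The first held RNA of sleep-deprived fish, which had spent 3 days in extended light (24 h light and 0 h dark). The second held RNA of fear-conditioned fish, trained by inhibitory avoidance, in which fish come to hold back from a move that was punished, and the third that of naive fish on a daily cycle of 14 h light and 10 h dark. The hours of light of the fear-conditioned fish, the strain, the number of fish per array and the level at which the brain was cut from the spinal cord are not stated in the sources used. Each condition has 1 array, so no value below has a replicate check and no test was possible.

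Hox genes encode homeodomain transcription factors that give cells their position along the body axis. Genes with low paralogue numbers are switched on first and reach furthest forward, into the hindbrain, whereas genes with high numbers act in the posterior spinal cord, tail and fins. The forebrain and midbrain lie in front of the Hox domain, and in vertebrates neurons of the hindbrain and spinal cord can keep their Hox expression into adult life. Hox proteins bind DNA together with cofactors of the Pbx, Meis and Prep families, and retinoic acid, made by aldh1a2 and broken down by Cyp26 enzymes, sets the front limits of many Hox genes in the embryo.

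Signals are log2 values as the authors deposited them. A gene counted as dim when its signal was under 3.45 on every array, a limit set at the lower quartile of all deposited values and not at a measured background. Of the 43 Hox genes 35 were above this limit and 8 were dim, compared with 17958 of 19260 named genes kept. The dim members were hoxb1a, which specifies facial motor neurons of the zebrafish hindbrain, and hoxc6b, hoxb7a, hoxa10b, hoxa11b, hoxd12a, hoxa13a and hoxb13a. The highest array was at 3.36 for hoxd12a, just below the limit, and at 3.488 for hoxa11a, just above it.

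Hox genes were dimmer on these arrays than most named genes. A mean signal at or above 4.99, the median of all probe sets, was found for 16 of 43 Hox genes (37.2%), compared with 74.8% of all named genes. The bright members were split by paralogue number, with 7 of 11 genes in paralogue numbers 1 to 4, 8 of 12 in 5 to 8 and 1 of 20 in 9 to 13. In the middle class, the median signal was 5.23 on the sleep-deprived array, 5.21 on the fear-conditioned array and 5.34 on the naive array. In the posterior class the median was 3.73 on the sleep-deprived array, 3.86 on the fear-conditioned array and 3.68 on the naive array. Probe sets differ in how well they bind their targets, so this order describes signals and does not rank transcripts.

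**Figure D1:**
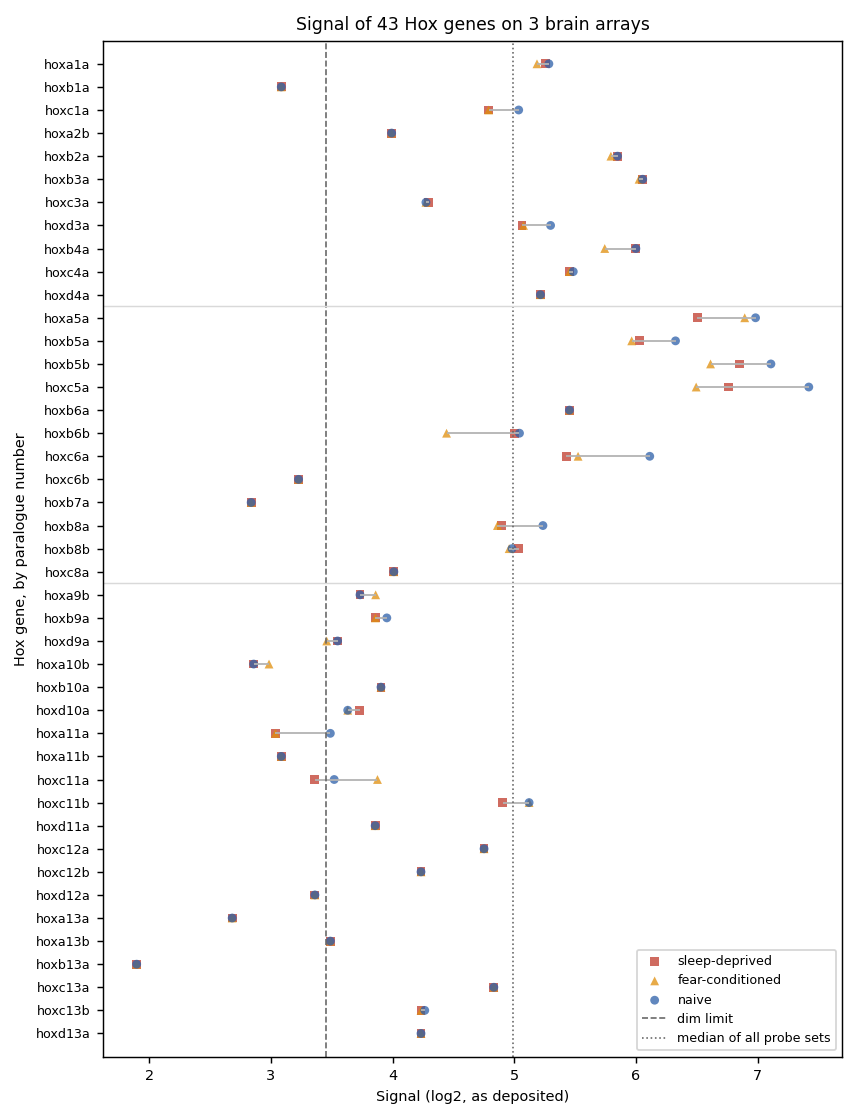
Signal (log2) of each of 43 Hox genes on the sleep-deprived (square), fear-conditioned (triangle) and naive (circle) array, ordered by paralogue number, with pale lines between the classes 1 to 4, 5 to 8 and 9 to 13. The 4 genes of paralogue number 5 reach furthest right, with the naive array highest in each, and most genes of numbers 9 to 13 lie left of the dotted median of all probe sets (4.99).

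The deposited values are coarse, which bears on all that follows. Of the 43 Hox genes 18 had exactly the same value on all 3 arrays, as did 33.3% of all 75212 probe sets. Among the 39 members with a single probe set, 17 were equal on all 3 arrays, and each of these 17 values was carried by at least 10 probe sets of the naive array. The value of hoxb7a, for example, stood at 611 probe sets, and hoxa11b and hoxb1a shared the value 3.09 with each other. Over all probe sets, 79.2% of those equal on all 3 arrays carried a value held by at least 10 probe sets, against 25.0% of the others. A difference of exactly 0 is therefore often a widely shared value, and is not read here as a measure of how alike the samples were. Not all zeros were of this kind. Both hoxb2a and hoxb4a were equal in sleep-deprived and naive fish at naive values carried by 1 probe set each. Shared values also entered differences other than 0. The naive values of hoxc1a, hoxc11b and hoxb9a were carried by 219, 128 and 457 probe sets. How these values arose was not tested.

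In the comparison of sleep-deprived with naive fish, which asks how the brain differs after extended light, more Hox genes were lower than higher. Of the 35 genes kept, 16 (45.7%) were lower by any amount, 16 (45.7%) were equal and 3 (8.57%) were higher. Among all genes kept, 30.9% were lower, 44.3% equal and 24.8% higher, so the share of equal genes was near that of all genes. At least 1.5-fold lower were 2 of the 35, hoxc5a and hoxc6a, where the background was 2.43% of all genes, and 0 were at least 1.5-fold higher (background 0.484%). No Hox gene was 2-fold apart (0 of 35, against 0.668% lower and 0.0947% higher over all genes). The median difference over the Hox genes was 0.00 and the mean -0.12, and over all genes kept the median was 0.00 and the mean -0.03.

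In the comparison of fear-conditioned with naive fish, which asks what accompanied avoidance learning, the balance was more one-sided. Of the 35 genes 19 were lower, 14 equal and 2 higher, beside 23.2% lower, 46.2% equal and 30.6% higher over all genes kept. At least 1.5-fold lower were 3 genes, hoxc5a, hoxb6b and hoxc6a, where the background was 0.763%, and 0 were at least 1.5-fold higher (background 0.830%). The 2-fold threshold was passed by 0 of 35 in either direction (0.184% lower and 0.245% higher over all genes). The median difference was -0.03 and the mean -0.13 over Hox genes, and 0.00 and 0.01 over all genes kept. Both comparisons share the naive array, so a value that is high on that array alone enters both. One such gene is hoxa11a, which passed the dim limit only through its naive value. It is counted as lower in both comparisons and enters both means at -0.45.

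The 16 Hox genes with a mean signal of at least 4.99 were also set beside the 14416 named genes above the same level, of which 39.1% were equal between sleep-deprived and naive fish and 41.6% between fear-conditioned and naive fish. In the sleep-deprived fish 10 of the 16 were lower and 1 was higher than in naive fish, where the background was 33.8% lower and 27.1% higher. In fear-conditioned fish 13 of 16 were lower and 0 higher than in naive fish, beside 25.0% lower and 33.3% higher. The value on each array enters the mean that chose these genes, and hoxb8a reached 4.99 only through its higher naive value. In the same way hoxb8b, the 1 gene higher in sleep-deprived fish, reached it only through its sleep-deprived value of 5.04. Without hoxb8a, a choice made after the data were seen, 9 of 15 were lower in sleep-deprived and 12 of 15 in fear-conditioned fish. With so few members and 1 array a group, these counts describe the arrays only. In bulk RNA, fewer cells of a type and less RNA per cell cannot be told apart.

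**Figure D2:**
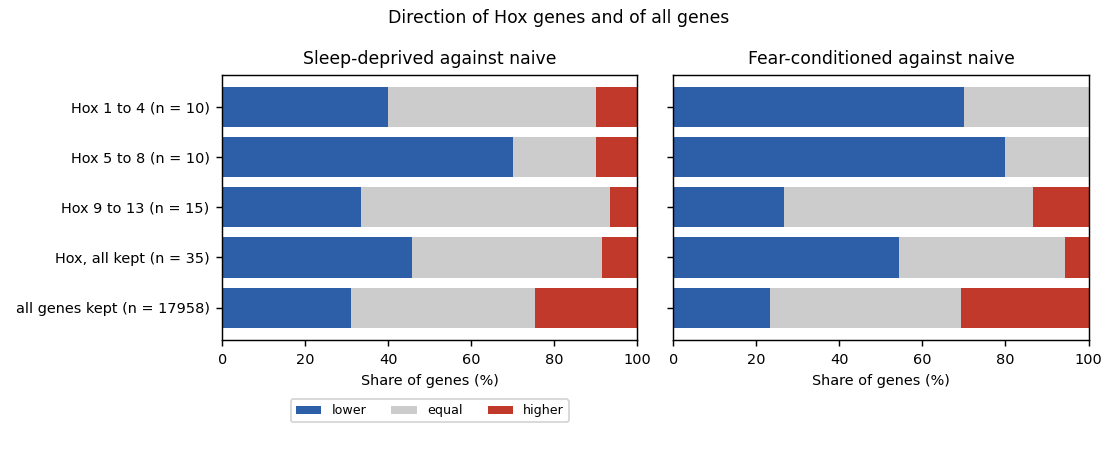
Share of genes (%) that were lower, equal or higher on the sleep-deprived (left) or fear-conditioned (right) array than on the naive array, for the kept Hox genes by paralogue number and for all genes kept. In numbers 5 to 8, 7 of 10 genes were lower in sleep-deprived fish and 8 of 10 in fear-conditioned fish, against 30.9% and 23.2% of all genes.

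The median differences from naive fish were largest in size in the middle of the clusters. For paralogue numbers 5 to 8 the median difference was -0.28 in sleep-deprived and -0.37 in fear-conditioned fish against naive fish, over 10 genes kept. For numbers 1 to 4 it was 0.00 and -0.04 over 10 genes, and for 9 to 13 it was 0.00 and 0.00 over 15. Of these 15 genes 9 were exactly equal in each comparison, mostly at low signals. Their median of 0.00 is therefore a repeated value and does not show a smaller difference. The same holds for the 0.00 of numbers 1 to 4 in sleep-deprived fish, where 5 of the 10 genes were exactly equal, 4 lower and 1 higher. Including the 2 dim genes of the middle class, hoxc6b and hoxb7a, which were equal on all arrays, gave -0.15 for sleep-deprived and -0.22 for fear-conditioned fish.

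Paralogue number 5 stood at the centre of this pattern. These genes act at the junction of hindbrain and spinal cord, and in mice Hoxa5 and Hoxc5 are needed in the motor neurons of the diaphragm. The signal of hoxc5a was 6.76 in sleep-deprived fish, 6.49 in fear-conditioned fish and 7.42 in naive fish. Its difference from naive fish was -0.66 on the sleep-deprived array, where it was 1.58-fold lower, and -0.93 on the fear-conditioned array, where it was 1.90-fold lower. It was the brightest Hox gene on the naive array. The signal of hoxb5b, which limits the heart field downstream of retinoic acid in zebrafish embryos, was 6.85 in sleep-deprived, 6.61 in fear-conditioned and 7.11 in naive fish, with differences of -0.26 and -0.50 from naive fish. For hoxb5a the values were 6.03, 5.96 and 6.32 in the same order, and the differences -0.29 and -0.36. The naive value of hoxb5a was a shared one, carried by 67 probe sets. The fourth member, hoxa5a, was at 6.50 in sleep-deprived fish, 6.89 in fear-conditioned fish and 6.98 in naive fish. Its differences were -0.48 for sleep-deprived and -0.09 for fear-conditioned fish, so the naive array was the highest for all 4 genes, while the lower of the other arrays was the sleep-deprived one for hoxa5a and the fear-conditioned one for hoxc5a, hoxb5b and hoxb5a.

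Genes of paralogue number 6 did not move as one. In chick and mouse Hoxc6 marks motor neurons at the level of the forelimb, and hoxc6a was at 5.43 in sleep-deprived fish, 5.52 in fear-conditioned fish and 6.11 in naive fish, a difference of -0.69 and -0.59. The signal was 1.61-fold lower in sleep-deprived fish, and in fear-conditioned fish the difference lay just past the 1.5-fold threshold. For hoxb6b the fear-conditioned array stood apart instead, with a signal of 5.002 in sleep-deprived, 4.44 in fear-conditioned and 5.04 in naive fish. Its differences from naive fish were -0.04 for sleep-deprived and -0.60 for fear-conditioned fish. The remaining members, hoxb6a at 5.45 and hoxc6b at 3.23, were equal on all 3 arrays.

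Paralogue number 8 had 1 gene that followed the genes of number 5. In mice Hoxb8 is known for its part in grooming behaviour and marks a lineage of microglia, the immune cells of the brain. The signal of hoxb8a was 4.90 in sleep-deprived, 4.86 in fear-conditioned and 5.24 in naive fish, and its differences from naive fish were -0.34 and -0.37. Its copy in the bb cluster, hoxb8b, was at 5.04, 4.96 and 4.98 in the same order and so differed from naive fish by 0.05 and -0.02. The 2 probe sets of hoxc8a, at 4.73 and 3.29, each had the same value on all 3 arrays. Number 7 was represented by hoxb7a alone, dim at 2.84 on each array.

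**Figure D3:**
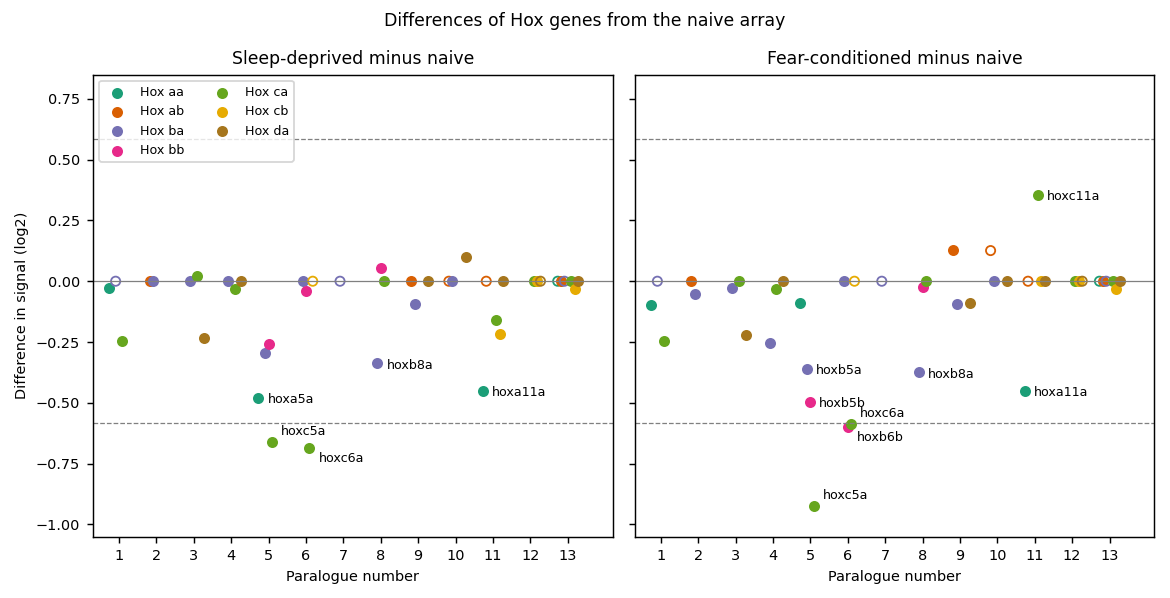
Difference in signal (log2) from the naive array for each Hox gene by paralogue number, in sleep-deprived fish (left) and fear-conditioned fish (right), with colours for the 7 clusters, open symbols for dim genes and dashed lines at 1.5-fold. The lowest point is hoxc5a at -0.93 in fear-conditioned fish, and hoxc11a at 0.36 is the highest.

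The anterior genes of the hindbrain showed small differences. For hoxb4a, whose front limit lies in the caudal hindbrain, the signal was 6.00 in sleep-deprived, 5.74 in fear-conditioned and 6.00 in naive fish, a difference of -0.26 for fear-conditioned fish alone. The signals of hoxb3a (6.05 in sleep-deprived, 6.03 in fear-conditioned and 6.05 in naive fish) and hoxb2a (5.85, 5.79 and 5.85 in the same order) lay within 0.1 of each other. The same holds for hoxc4a, with differences of -0.03 in both groups, and hoxd4a, equal at 5.22 on all 3 arrays.

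For hoxd3a, measured by 2 probe sets, both had lower signals in sleep-deprived and in fear-conditioned than in naive fish. The brighter one was at 5.63 in sleep-deprived, 5.65 in fear-conditioned and 5.87 in naive fish, and the dimmer one at 4.50, 4.50 and 4.72. Their differences were -0.24 and -0.23 for sleep-deprived fish and -0.22 and -0.22 for fear-conditioned fish, so the same shift was read by each. The probe sets of hoxc3a, in contrast, were equal or differed from naive fish by 0.05 at most.

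Of the genes of paralogue number 1, hoxa1a was at 5.26 in sleep-deprived, 5.19 in fear-conditioned and 5.28 in naive fish. The signal of hoxc1a was 4.79 in sleep-deprived and in fear-conditioned fish and 5.04 in naive fish, a difference of -0.25 in each. The naive value was the highest for both, by less than 0.1 in the case of hoxa1a against each group. The gene hoxa2b, which in zebrafish has a part in giving the second pharyngeal arch its identity, was equal at 3.99 on all 3 arrays, and hoxb1a was dim at 3.09.

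Posterior Hox genes, which act in the tail and, in the case of the hoxa13 and hoxd13 genes, in the fin rays, had signals below the median of all probe sets on average in 19 of 20 cases. Of the 20 genes of numbers 9 to 13, 11 had the same value on all 3 arrays, among them hoxc12a at 4.75, hoxc13a at 4.83, hoxd11a at 3.86, hoxb10a at 3.90 and hoxd13a at 4.23. The only gene of the class with a mean signal above 4.99 was hoxc11b, at 4.90 in sleep-deprived and 5.12 in fear-conditioned and in naive fish, a difference of -0.22 for sleep-deprived fish. Its paralogue hoxc11a was at 3.36 in sleep-deprived, 3.88 in fear-conditioned and 3.52 in naive fish. It was thus -0.16 from naive in sleep-deprived and 0.36 from naive in fear-conditioned fish, the largest positive Hox difference, at signals near the dim limit.

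The signal of hoxa11a was 3.04 in both sleep-deprived and fear-conditioned fish and 3.49 in naive fish, a difference of -0.45 in each. When signals under the dim limit were raised to it, the difference was -0.03, so its size rests on signals below the limit. Signals above those of naive fish were found for hoxa9b (0.13) and hoxa10b (0.13) in fear-conditioned fish, the second of them dim throughout, and for hoxd10a (0.10), hoxb8b and hoxc3a in sleep-deprived fish. The 2 probe sets of hoxd10a disagreed, with differences of 0.20 and 0.00 in sleep-deprived fish. For hoxb9a and hoxd9a no difference from naive fish was over 0.1 in size. The value 4.23 of hoxc12b and hoxd13a, exactly shared, was also the value of hoxc13b on the sleep-deprived and fear-conditioned arrays.

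By cluster, the 7 sets were small, with 3 to 11 genes each. The bb cluster had the lowest median in fear-conditioned fish, at -0.50 over 3 genes, and -0.04 in sleep-deprived fish. In the aa cluster 3 genes were kept, of which hoxa11a passed the dim limit only through the naive array. With signals under the limit raised to it, an alternative chosen after the data were seen, the aa median was -0.03 in sleep-deprived and -0.09 in fear-conditioned fish. In the ba cluster 8 genes were kept, with a median of 0.00 in sleep-deprived and -0.07 in fear-conditioned fish, and in the ca cluster 9 genes, with -0.03 and 0.00. The ab cluster, 3 of whose 5 genes were kept, held none with a lower signal than in naive fish in either group, and the cb and da clusters had medians of -0.03 and 0.00 in sleep-deprived and 0.00 and 0.00 in fear-conditioned fish. The lower genes of numbers 5 to 8 came from 4 clusters (aa, ba, bb and ca), the only ones with a kept gene of these numbers.

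In the RefSeq annotation of assembly GRCz12tu the spans of 14 of the 43 genes overlap that of another Hox gene, as the long spans of hoxb3a, hoxc3a, hoxa3a, hoxb1b and hoxd3a run across their neighbours. Among these 14 are hoxc5a, hoxc6a, hoxb5a, hoxb5b, hoxb6b and hoxa5a. The others are hoxb6a, hoxc8a and hoxd4a, equal on all 3 arrays, and hoxb3a, hoxb4a, hoxc3a, hoxc4a and hoxd3a, whose values are given above. Where transcripts share exons, a probe set may read more than 1 gene, and which probes lie in shared exons could not be looked up here. The span of hoxc3a overlaps those of hoxc5a and hoxc6a, and its mean signal differed from naive fish by 0.02 in sleep-deprived and 0.00 in fear-conditioned fish. Both of its probe sets lay under the median of all probe sets, and the brighter had the repeated value 4.64 on every array. The spans of hoxb8a and hoxc1a overlap no other Hox gene, and their differences are given above. The naive value of hoxc1a was shared by 219 probe sets, and hoxb8a counted as bright only through its naive value. The spans of hoxa1a and hoxb2a also overlap no other Hox gene, and their differences from naive fish were under 0.1 in size. The part of shared exons in the Hox differences was not tested.

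Sleep-deprived fish set against fear-conditioned fish, a comparison that does not use the naive array, showed less. Of the 35 genes 6 were lower, 13 higher and 16 equal in sleep-deprived fish, beside 34.5% lower, 23.1% higher and 42.4% equal over all genes kept. Neither direction held a gene at least 1.5-fold apart (0 of 35 each, background 2.71% lower and 0.562% higher), and the 2-fold background was 0.869% lower and 0.134% higher. The most positive difference was 0.56 for hoxb6b, followed by 0.26 for hoxc5a and for hoxb4a, and the most negative were -0.51 for hoxc11a and -0.39 for hoxa5a. The median for numbers 5 to 8 was 0.05, with 6 genes higher and 2 lower. Centring each array on its median over the named genes kept, which adds 0.05 to each of these differences, took hoxb6b past 1.5-fold.

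Of 11 cofactor genes kept, 0 were 1.5-fold apart in any comparison. Against naive fish, 8 were higher and 1 lower in sleep-deprived fish, and 3 were higher and 7 lower in fear-conditioned fish, with medians of 0.07 and -0.01. Over all genes kept, 24.8% were higher and 30.9% lower in sleep-deprived fish, and 30.6% higher and 23.2% lower in fear-conditioned fish. The shares of all genes past 1.5-fold are given above. The largest difference of a cofactor gene was that of meis2a, at 10.3 in sleep-deprived, 10.1 in fear-conditioned and 10.0 in naive fish (0.25 for sleep-deprived fish). Of the Pbx genes, pbx2 and pbx3b were at 0.18 and 0.17 in sleep-deprived fish, and pbx4 at 0.11 in fear-conditioned fish. The meis3 signal was 7.85 in sleep-deprived, 7.72 in fear-conditioned and 7.85 in naive fish.

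Among 25 genes of retinoic acid signalling, 2 were at least 1.5-fold lower in sleep-deprived fish and 0 in fear-conditioned fish, and the median was 0.00 in both. Over all genes kept, 2.43% were at least 1.5-fold lower in sleep-deprived and 0.763% in fear-conditioned fish. These shares also apply to the Polycomb and Trithorax genes below. The 2 retinoic acid genes were rdh10a (-0.68), whose enzyme makes retinal, the precursor of retinoic acid, and rbp4 (-0.60), a carrier of retinol. For aldh1a2 the signal was 6.94 in sleep-deprived and 6.78 in fear-conditioned and in naive fish, and for cyp26b1 8.30, 7.84 and 8.14 in the same order. Both cyp26a1 and cyp26c1 were equal on all 3 arrays. Of 23 Polycomb and Trithorax genes, which keep Hox genes silent or active, 1 was at least 1.5-fold lower in sleep-deprived fish and 0 in fear-conditioned fish, cbx7a at -0.63 and -0.26. Genes beside the Hox clusters had medians of 0.00 over 17 genes in both groups, with skap1 at -0.54 and -0.33, and the evx1 and evx2 genes, which adjoin Hox clusters, were equal on all 3 arrays. In the ParaHox list of 5 genes gsx1 had the largest difference, 0.41 in sleep-deprived and 0.12 in fear-conditioned fish.

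Markers of regions along the neural axis were read beside the Hox genes. General neuron markers, which do not tell brain from spinal cord, were high on all arrays. Of these 13 were kept, with a median signal of 10.05 in sleep-deprived, 10.04 in fear-conditioned and 10.04 in naive fish. The counts of the lists below stand beside 24.8% higher and 30.9% lower over all genes kept in sleep-deprived fish, and 30.6% higher and 23.2% lower in fear-conditioned fish. Of 39 forebrain and midbrain factors, 16 were higher and 6 lower in sleep-deprived than in naive fish, and 16 higher and 4 lower in fear-conditioned than in naive fish. The other 17 and 19 were equal, and the median difference was 0.00 in both groups. Their summed signal on the linear scale was 5027 in sleep-deprived, 4814 in fear-conditioned and 4501 in naive fish. Genes left out of the sums here and in the next lists were chosen after the data were seen. Without lhx9 and pax7a the sums were 3966, 3961 and 3792 in the same order, still lowest on the naive array. Among them emx2, a factor of the dorsal telencephalon, was at 7.01 in sleep-deprived, 6.61 in fear-conditioned and 6.27 in naive fish, and lhx9 at 9.11, 8.90 and 8.49. The midbrain factor pax7a differed from naive fish by 0.55 in sleep-deprived and 0.11 in fear-conditioned fish. Other factors of the list were mixed. The order of emx2 and lhx9 was shared by dlx1a, at 7.89 in sleep-deprived, 7.83 in fear-conditioned and 7.58 in naive fish. It was also that of six3b, at 6.95, 6.91 and 6.61. It was not shared by emx1, at 6.25 in sleep-deprived, 6.01 in fear-conditioned and 6.25 in naive fish, or by tbr1a, equal on all 3 arrays.

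Of 19 genes of hindbrain segmentation and hindbrain neurons, 4 were lower and 5 higher in sleep-deprived fish, and 6 lower and 4 higher in fear-conditioned fish. None was 1.5-fold apart (0 of 19). Over all genes kept, 2.43% were at least 1.5-fold lower and 0.484% higher in sleep-deprived fish. In fear-conditioned fish these shares were 0.763% and 0.830%, so 0 of 19 is near the share of all genes. The summed linear signal of the 19 genes was 1880 in sleep-deprived, 1843 in fear-conditioned and 1954 in naive fish, and the median difference was 0.00 in both groups. Without slc6a5 the sums were 1298, 1222 and 1243 in the same order, so the order of the sleep-deprived and naive arrays rests on that gene. The glycine transporter gene slc6a5, of hindbrain and spinal cord interneurons, was at 9.19 in sleep-deprived, 9.28 in fear-conditioned and 9.48 in naive fish. In the same order, tlx3a was at 7.62, 7.71 and 7.87 and gata3 at 7.92, 7.73 and 7.53, so naive was the highest array for the first and the lowest for the second. The serotonin synthesis gene tph2 differed from naive fish by 0.28 in sleep-deprived and -0.23 in fear-conditioned fish.

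Of 25 genes of spinal cord neurons, 4 were lower and 8 higher in sleep-deprived fish, and 6 lower and 7 higher in fear-conditioned fish. Their summed linear signal was 2146 in sleep-deprived, 2087 in fear-conditioned and 2204 in naive fish, and the median difference was 0.00 in both groups. Without urp2 the sums were 2080, 2015 and 2007 in the same order, so the naive array was highest through that gene alone. The largest differences in this list were those of urp2, a peptide gene of neurons that contact the cerebrospinal fluid in the hindbrain and spinal cord. It was at 6.05 in sleep-deprived, 6.18 in fear-conditioned and 7.62 in naive fish, and its relative urp1 was at 4.58, 5.39 and 5.48. For urp2 and urp1 naive was the highest array. It was the lowest for 2 other genes with large differences in sleep-deprived fish. These were isl1a, at 7.28 in sleep-deprived, 6.92 in fear-conditioned and 6.89 in naive fish, and gata3, at 7.92, 7.73 and 7.53 in the same order. Of 14 cerebellum genes, 7 were higher and 3 lower in sleep-deprived fish and 6 higher and 4 lower in fear-conditioned fish. The signal of cbln12 was 7.94 in sleep-deprived, 8.10 in fear-conditioned and 7.54 in naive fish. For aldoca it was 8.98, 9.55 and 9.38 in the same order, with differences from naive fish of -0.40 and 0.17. The part that the region markers, or where each brain was cut, may have in the Hox differences was not tested.

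Some marker genes of tissues outside the brain also differed between the arrays. The median difference of 16 skin and epithelium genes was -0.14 in sleep-deprived and 0.68 in fear-conditioned fish, with summed linear signals of 1299 in sleep-deprived, 2087 in fear-conditioned and 1423 in naive fish. The keratin gene krt5 was at 6.67 in sleep-deprived, 8.79 in fear-conditioned and 6.97 in naive fish. Fin and trunk mesenchyme genes had medians of 0.00 over 15 genes in both groups, but the fin fold gene and1 was at 6.99 in sleep-deprived, 5.37 in fear-conditioned and 5.95 in naive fish. The collagen gene col1a1a was at 5.55 in sleep-deprived, 8.07 in fear-conditioned and 5.41 in naive fish. At least 2-fold higher in fear-conditioned than in naive fish were 3 of 9 fibroblast genes, against 0.245% of all genes kept. These were the collagen genes col1a1a, col1a1b and col1a2, and the median of the 9 was 0.04. Of 15 muscle genes 2 were at least 2-fold higher in fear-conditioned fish, ckma by 1.21 and pvalb2 by 1.42 on the log2 scale. By any amount, 7 of the 15 were higher, 8 equal and 0 lower, with a median of 0.00. In sleep-deprived fish the blood cell gene nt5c2l1 differed from naive fish by -2.53, while the median of 8 blood cell genes was -0.05. Among cells of the brain, the radial glia genes gfap and cyp19a1b differed by -0.91 and -0.87 in sleep-deprived fish. The median of 11 radial glia genes was 0.00 there, with 5 lower, 4 higher and 2 equal. In fear-conditioned fish gfap differed from naive fish by 0.76 and cyp19a1b by -0.10. Among the posterior Hox genes only hoxc11a, hoxa9b and hoxa10b were higher in fear-conditioned than in naive fish, all at signals under the median of all probe sets. The part of these tissues and cells in the Hox differences was not tested.

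**Figure D4:**
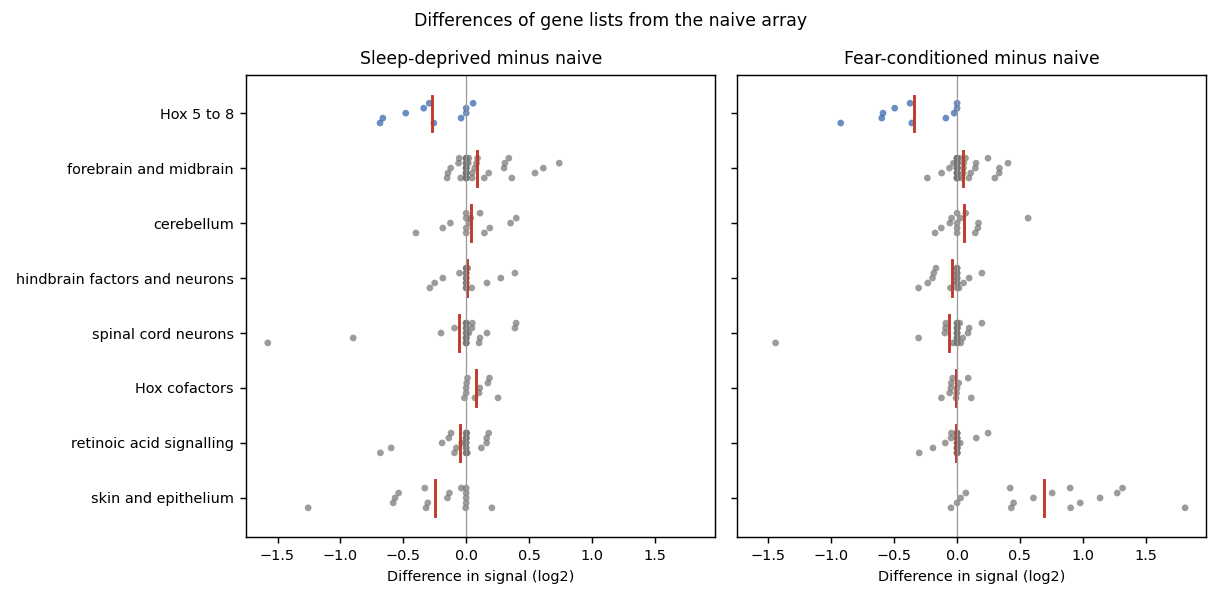
Difference in signal (log2) from the naive array for the kept genes of Hox numbers 5 to 8 (blue) and of 7 other lists (grey), in sleep-deprived fish (left) and fear-conditioned fish (right), with a red bar at each mean. The mean of Hox numbers 5 to 8 is -0.27 in sleep-deprived and -0.35 in fear-conditioned fish, while forebrain and midbrain factors are at 0.09 and 0.05. Means in the same order are 0.01 and -0.04 for hindbrain genes, and -0.06 and -0.06 for spinal cord neurons. The lowest spinal cord point is urp2 at -1.58 and -1.44, which weighs heavily on the means of that list. Its median is 0.00 in both groups.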

How the data were processed

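Trizol was used to extract RNA, and fragments of sense cDNA carried biotin from a GeneChip WT labelling kit, per the labels' protocols. The values deposited by the authors, 1 per probe set and array, are read here as log2 signals from their range of 0.61 to 13.4; the base of the logarithm, the summarisation and the normalization are not given in these sources. The 3 arrays have the same median of 4.99, so a shift of all genes cannot be seen.

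Of 75212 probe sets 20806 had 1 gene symbol, 855 several and 53551 none in the platform annotation used here. Other symbols were updated through Entrez identifiers for 20323 probe sets. Each of the 43 Hox symbols is the current one. Another 3 probe sets whose several symbols include a Hox gene were left out. Probe sets of a gene were averaged, dim genes were left out of counts, and differences of 2 arrays were counted past 1.5-fold and 2-fold, with no test. The counting step was tested on simulated data.

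Named were Hox genes at least 1.5-fold apart, the 5 most positive and 5 most negative differences from naive, the brightest gene of each paralogue number, genes with several probe sets, and up to 4 members of each of 18 other lists; the other Hox genes were named after their values were seen. Members and lists were chosen with earlier results of these data known. Lists of radial astroglia, oligodendrocytes, skeletal muscle, fibroblasts, blood cells and kidney had median differences from naive fish of 0.00, -0.11, 0.00, 0.00, -0.05 and 0.00 in sleep-deprived and -0.06, 0.01, 0.00, 0.04, -0.03 and 0.00 in fear-conditioned fish. Of 319 listed genes 284 were measured. Python 3.11.15, pandas 2.3.3, numpy 2.4.6, statsmodels 0.14.6 and matplotlib 3.10.9 were used. The number of arrays limits the precision.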

Additional observations from a re-analysis of the deposited data

How the results depend on the processing

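Alternatives were centring each array on its median over the named genes kept, quantile normalization, removal of a lowess trend (fraction 0.3), the brightest probe set for a gene, no filter on dim genes, a dim filter at 4.99 and, for counts, a 2-fold threshold, and for single genes raising signals under the dim limit to it, which bore on hoxa11a (-0.03 from naive in both groups). A median counted as moved when it shifted by over 0.1. The 2 and 3 genes at least 1.5-fold lower in sleep-deprived and fear-conditioned fish than in naive fish were counted under each alternative but the 2-fold threshold, which left 0 and 0. Sleep-deprived over fear-conditioned had 1 gene at least 1.5-fold higher after centring and 1 after quantile normalization, against 0. Without the dim filter the medians of numbers 5 to 8 were -0.15 in sleep-deprived and -0.22 in fear-conditioned fish against naive fish. With the dim filter at 4.99 the medians of all Hox genes left were -0.13 and -0.16, and that of numbers 9 to 13, then hoxc11b alone, was -0.22 in sleep-deprived fish against naive and also against fear-conditioned fish. This filter kept hoxc1a and hoxb8a only through their naive values, so both had to count as lower in each group. It kept hoxb8b only through its sleep-deprived value. The larger medians of all Hox genes rest in part on this choice of genes. The aa cluster median in sleep-deprived fish moved to -0.03, against -0.45, when signals under the dim limit were raised to it. No called difference changed sign. No paired analysis was possible because each group has 1 array.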

Other observations

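The 3 probe sets that the annotation gives to several genes, at least 1 of them a Hox gene, were left out of all counts. The brightest of them, assigned jointly to 3 genes of the aa cluster with low and middle paralogue numbers, had signals of 5.88 in sleep-deprived, 5.57 in fear-conditioned and 6.12 in naive fish. Its differences from naive fish were -0.24 and -0.55. Its genes include 1 of paralogue number 5, hoxa5a, whose own probe set differed by -0.48 and -0.09, with the sleep-deprived array the lowest. The other 2 probe sets, at 4.04 and 3.44, were equal on all 3 arrays.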
